A study of Homo sapiens with 38 samples.

Results

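Nuclear and cytoplasmic RNA of wild-type HCT116 cells were compared across all annotated genes. HCT116 is a human colorectal carcinoma line. The members were chosen by sample title alone, and they are 6 of the 38 samples of the series: 3 nuclear and 3 cytoplasmic total RNA libraries from unedited cells, 1 of each kind at culture passages 27, 28 and 29. Another 24 RNA-seq libraries come from 4 gene-edited HCT116 lines, each lacking 1 or more Argonaute genes (AGO1/2/3, AGO1/2, AGO2 or AGO1), and they enter only the last comparison. The cells were lysed in a hypotonic buffer with detergent, and the nuclei were washed to strip off endoplasmic reticulum before RNA was taken. The paper states that its harsh lysis broke some nuclei, so a little nuclear RNA may be found in the cytoplasmic fraction. All groups used here grew in the same medium, and the labels name no further agent. Each genotype is 1 cell line, so the 3 libraries of a fraction are passages of 1 culture line, and p-values measure the spread between those passages. The nuclear libraries held 26536692, 22163544 and 20431557 estimated reads at passages 27, 28 and 29, and the cytoplasmic libraries held 39476205, 43281746 and 43094868.

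RNA is made and processed in the nucleus, and messenger RNA is exported to the cytoplasm once it has been capped, spliced and polyadenylated. Several classes stay behind: small nucleolar RNAs guide the modification of ribosomal RNA, small Cajal body RNAs guide that of the spliceosomal RNAs, and long noncoding RNAs such as NEAT1 and MALAT1 reside in paraspeckles and nuclear speckles. Transcripts that keep an intron are commonly held in the nucleus, and mitochondrial transcripts never enter it.

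2 units are used. TPM, the usual length-normalised unit of transcript abundance, scales reads for transcript length and library total, and gives the level of a gene within a library. The log2 ratio of nuclear over cytoplasmic RNA is a difference fitted to the summed reads of a gene by edgeR's quasi-likelihood test with TMM scaling. Calls were made at 0.05 after Benjamini-Hochberg adjustment over all 17523 genes tested. The ratio is relative: the total RNA of each fraction is not given in the sources used here, so less RNA of a gene in a fraction and more of the other RNAs there cannot be told apart. TPM and the scaled ratio can therefore differ in sign for genes close to the middle. Counts of 0 bound a level by counting error only. Libraries of the same fraction correlated at 0.987 to 0.998 on log2 CPM over genes, but passage 29 stood apart in both fractions. Counts of nuclear passages 27 and 28 differed with a chi-square of 4.73 per degree of freedom, and those of passage 29 differed from them with 43.2 and 38.6. The cytoplasmic values were 7.21, 76.6 and 71.7. Without nuclear passage 29 the calls numbered 6695 nuclear and 6257 cytoplasmic, and without cytoplasmic passage 29 they numbered 6541 and 6395.

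The fraction markers differed in the direction of their known location. NEAT1, the architectural RNA of paraspeckles (chr11:65422774-65445540, GRCh38), measured 102, 100 and 179 TPM in nuclear RNA of passages 27, 28 and 29 and 4.98, 6.81 and 10.8 TPM in cytoplasmic RNA. The groups did not overlap, and the highest nuclear value was that of passage 29. Its log2 ratio was 3.93 (SE 0.309, adjusted p = 2.8e-05), or 15.2-fold. MALAT1, a long noncoding RNA of nuclear speckles (chr11:65497640-65508073), measured 2687, 2949 and 3486 TPM in nuclear and 138, 141 and 79.9 TPM in cytoplasmic RNA, a log2 ratio of 3.87 (SE 0.227, adjusted p = 9.6e-06). The messenger RNA of GAPDH, a glycolytic enzyme (chr12:6534512-6538374), measured 1385, 1338 and 1067 TPM in nuclear and 2066, 1978 and 1838 TPM in cytoplasmic RNA. It was lower in every nuclear library, with a log2 ratio of -1.16 (SE 0.111, adjusted p = 6.9e-05), or 2.23-fold higher in the cytoplasm. Of 10 colon epithelial markers, 5 reached a mean of 1 TPM, and the summed level of the list was 964 to 1033 TPM in nuclear and 971 to 1060 TPM in cytoplasmic libraries. CDX1 was at 0 in all 6 libraries. Of 12 immune, stromal and endothelial markers, 2 reached 1 TPM (COL1A1 and CD68), with sums over the list of 5.25 to 7.51 and 2.21 to 4.36 TPM, and CD3E and DCN were at 0.

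**Figure D1:**
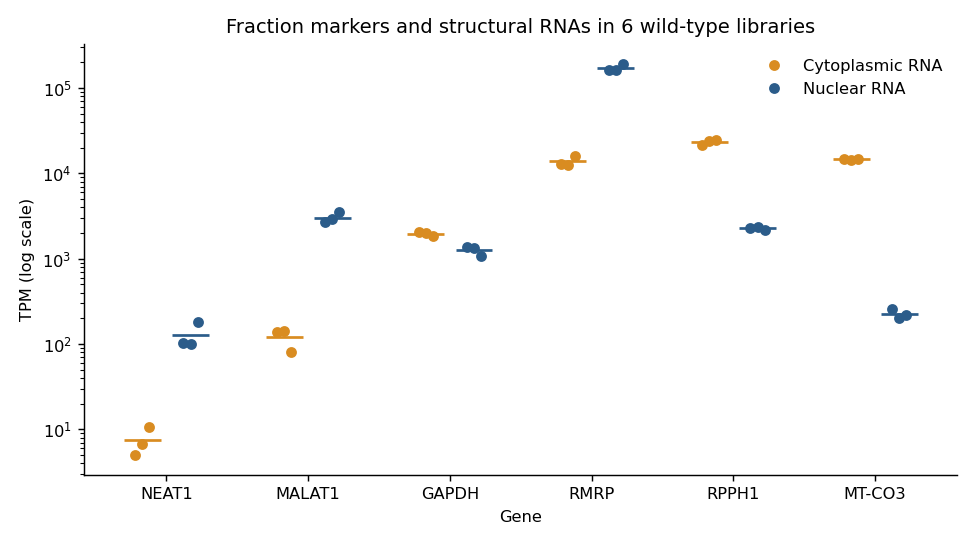
TPM on a log axis for 6 genes in the 3 nuclear and 3 cytoplasmic wild-type libraries, with a line at each mean. NEAT1, MALAT1 and RMRP sit higher in every nuclear library, and GAPDH, RPPH1 and MT-CO3 in every cytoplasmic one.

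Of the 17523 genes tested, 6290 (35.9%) were higher in nuclear RNA and 6090 (34.8%) in cytoplasmic RNA. At least 2-fold differences were called for 4690 genes (26.8%) toward the nucleus and 2725 (15.6%) toward the cytoplasm. These percentages are the background against which each class below is read. The balance depends on the scaling. TMM scaling made 50.8% of all calls nuclear, library size alone made 72.7% nuclear (8839 against 3316 genes), TMM factors from protein-coding genes 61.5%, upper-quartile factors 62.7%, and limma on log2(TPM + 0.1) 75.8%. Library size alone moved the median of all genes by 0.48 on the log2 scale toward the nucleus, so the ratios below are relative to a median gene near 0. Ranges of medians given below as over the scalings cover these fits, DESeq2, RLE factors, length-scaled TPM and limma on log2(TPM + 1). The limma fits also add a constant to TPM, so such a range is not one of scaling alone.

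The annotated gene types separated widely. The low-count filter keeps a gene with enough reads in 1 fraction alone, so a gene can be tested on nuclear reads only. Of 941 annotated small nucleolar RNA genes 103 were tested. 24 of these had no cytoplasmic read and 0 had no nuclear read. Among the 103, 100 were called nuclear and none cytoplasmic, and all 9 small Cajal body RNA genes tested, of 49 annotated, were nuclear. Such shares hold for the tested genes and not for the whole class. Among 2660 long noncoding RNA genes 1944 (73.1%) were nuclear and 159 (5.98%) cytoplasmic, with a median log2 ratio of 2.13 that ranged from 0.77 to 2.61 over the scalings. That median was 2.61 with library size alone and 2.36 with TMM from protein-coding genes. Pseudogenes had 788 of 1208 called nuclear and 248 cytoplasmic, with a median of 2.48. These shares depend on the low-count filter: without it many more genes were tested, and 35.0% of long noncoding genes and 23.9% of pseudogenes were nuclear. The type TEC, loci that still need experimental checking, had 263 of 287 tested genes nuclear, with 1033 annotated. Protein-coding genes leaned the other way: 3120 of 13142 (23.7%) were nuclear and 5653 (43.0%) cytoplasmic, with a median of -0.27. That median is near the centre of all genes and its sign flips, with a range of -0.30 to 0.29 over the scalings. With library size alone 5406 protein-coding genes were nuclear and 3068 cytoplasmic. Intronless protein-coding genes, 258 in number, had 72 nuclear and 116 cytoplasmic calls and a median of -0.49, which reached 0.02 under another scaling.

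**Figure D2:**
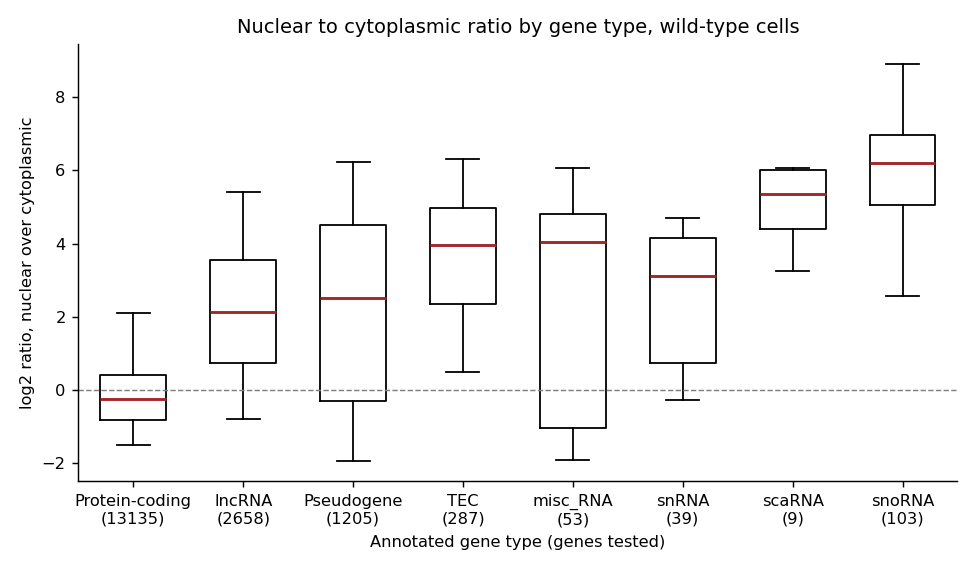
Log2 ratio of nuclear over cytoplasmic RNA by annotated gene type in wild-type cells, with boxes from the lower to the upper quartile, whiskers at the 5th and 95th percentiles and a red line at the median. Genes of the Y chromosome are not drawn. The median is near 0 for protein-coding genes, 2.13 for lncRNA and 6.21 for snoRNA.

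Small nucleolar RNAs and small Cajal body RNAs had the highest fitted median ratios of the 28 gene lists. Among the annotated gene types, the 4 microRNA genes tested had a higher median, 8.00. Of the 10 genes with the largest nuclear ratio at a mean of at least 10 TPM, 9 are small nucleolar RNAs and the other is MIR663A, a microRNA gene. No cytoplasmic library held a read of any of them, so only a lower bound can be given, set against a floor of 3 counts over the cytoplasmic group. SNORA70 (chrX:154400281-154400415), a box H/ACA RNA, measured 266, 247 and 331 TPM in nuclear passages 27, 28 and 29, at least 330.3-fold higher than in the cytoplasm. SNORD99, a box C/D RNA, measured 345, 293 and 295 TPM and was at least 154-fold higher. TPM divides by length and these RNAs are short, so such values rest on few reads. Over the 3 nuclear libraries SNORA70 had 746 reads, SNORD99 had 353 and SNORA44, the lowest of the 10, had 141. The bounds were 99.2-fold for SNORA22 at 93.7, 98.3 and 67.2 TPM, 82.3-fold for SNORA8, 72.3-fold for SNORD46 and 68.8-fold for SNORD68. SNORA64 and SNORA44 had bounds of 63.4 and 61.8-fold, and MIR663A one of 66.1-fold at 84.2, 95.9 and 106 TPM. SNORA17B had a bound of 165-fold, but its annotation holds a second, nearly identical gene model on the same bases with a log2 ratio of 4.76, and Salmon splits reads between such models, so the value of each is uncertain. SNORA70 also belongs to a family with several copies.

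Sequences of some of the RNAs that head this ranking are shown with the letters of their class in capitals, as read from the genome. Box C/D RNAs carry box C (TGATGA, searched in the first 20 bases) and box D (CTGA, in the last 20), and box H/ACA RNAs end in ACA 3 bases from the 3′ end.
SNORD99 (GRCh38 chr1:28578749-28578822, minus strand): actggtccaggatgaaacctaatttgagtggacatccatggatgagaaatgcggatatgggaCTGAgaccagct
SNORD68 (GRCh38 chr16:89561434-89561517, plus strand): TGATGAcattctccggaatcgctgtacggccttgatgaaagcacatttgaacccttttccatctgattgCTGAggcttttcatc
SNORA70 (GRCh38 chrX:154400281-154400415, plus strand): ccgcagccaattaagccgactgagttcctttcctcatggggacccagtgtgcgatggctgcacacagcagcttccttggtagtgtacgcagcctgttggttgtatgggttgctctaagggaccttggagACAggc
SNORA22 (GRCh38 chr7:65755526-65755659, plus strand): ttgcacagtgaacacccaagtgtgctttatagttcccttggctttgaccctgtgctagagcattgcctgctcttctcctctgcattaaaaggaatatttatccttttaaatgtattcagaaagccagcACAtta
SNORA8 (GRCh38 chr11:93732361-93732499, minus strand): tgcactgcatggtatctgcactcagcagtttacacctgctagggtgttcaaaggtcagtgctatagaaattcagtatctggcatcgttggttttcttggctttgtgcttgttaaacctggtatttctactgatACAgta
Box D was found in the last 20 bases of 90.1% of 314 annotated SNORD genes and 7.98% of 213 SNORA genes, and the terminal ACA in 66.7% of SNORA and 1.59% of SNORD genes. Box C matched 65.3% of SNORD genes and 0.47% of SNORA genes, and in SNORD99 these exact letters are not in the window. Both families lie at the nuclear end of the ranking.

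Over the 99 SNORA and SNORD genes that passed the filter, of 524 annotated, 97 were nuclear and none cytoplasmic, with a median log2 ratio of 6.20. 24 of them had no cytoplasmic read, and the median was 5.48 with those at their bound, level with 5.47 for small Cajal body RNAs. When ratios were taken passage by passage with 0.5 CPM (reads scaled to library size) added, the medians were 2.28, 2.15 and 2.41 for small nucleolar RNAs and 4.66, 4.89 and 5.198 for small Cajal body RNAs at passages 27, 28 and 29, so which of these lists leads depends on how a count of 0 is treated. By this measure the list of nuclear long noncoding RNAs, at 3.08, 3.30 and 3.61, also lay above small nucleolar RNAs. Most small nucleolar RNA genes lie in introns of a host: 97 of 103 genes of this type sat inside a gene on the same strand, and 96 of these were nuclear. Reads of a host intron can be counted on the embedded gene. The part of host introns in these values was not tested. Small Cajal body RNAs, which differ from the former in where they guide modification, were nuclear in 12 of 12 cases. SCARNA5 measured 612, 707 and 741 TPM in nuclear and 5.41, 5.56 and 3.72 TPM in cytoplasmic libraries (98.8-fold), and SCARNA10 2120.3, 2689.7 and 2820.2 against 21.9, 22.6 and 15.3 TPM. Both pairs of groups are far apart, and the lowest of 12 ratios, SCARNA23, was 2.68.

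Spliceosomal small nuclear RNAs, which assemble with proteins in the cytoplasm and then act in the nucleus, were nuclear in 27 of 37 tested genes and cytoplasmic in none. The list holds 1654 annotated genes, and most did not pass the filter. Their median log2 ratio was 3.12. RNU5B-1, a U5 gene, measured 92.1, 96.3 and 106 TPM in nuclear and 3.24, 3.04 and 1.53 TPM in cytoplasmic RNA, a ratio of 4.71 (SE 0.321, adjusted p = 1.6e-05). RNVU1-18, a variant U1 gene, measured 5592, 6678 and 9816 against 83.2, 203 and 307 TPM, with passage 29 highest in both fractions. Copies of U1 and U6 genes are close to identical, so the share of reads of each copy is uncertain.

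Abundant structural RNAs divided between the fractions. RMRP, the RNA of the RNase MRP enzyme that processes ribosomal RNA precursors, measured 164653, 161191 and 194122 TPM in nuclear and 13069, 12529 and 15925 TPM in cytoplasmic libraries. It was higher in every nuclear library, with a log2 ratio of 3.13 (SE 0.188, adjusted p = 1e-05). RPPH1, the related RNA of RNase P, lay on the other side: 2291, 2379.7 and 2153 TPM in nuclear and 21691, 24217 and 24744 TPM in cytoplasmic RNA, a ratio of -3.89 (SE 0.132, adjusted p = 3.1e-06). The telomerase RNA TERC was nuclear (157, 183 and 202 against 28.5, 21.3 and 27.7 TPM, log2 ratio 2.29). RN7SK, the RNA that holds the elongation factor P-TEFb inactive, measured 38008, 44515 and 38131 TPM in nuclear and 59059.5, 58764 and 57897 TPM in cytoplasmic libraries, a ratio of -1.05 (SE 0.119, adjusted p = 0.00015), and a second model on the same bases shares its reads. RN7SK was not called with limma on log2(TPM + 0.1) (-0.55, adjusted p = 0.21) or log2(TPM + 1) (-0.55, adjusted p = 0.066). RN7SL1 and RN7SL2, the RNAs of the signal recognition particle and near-identical copies of each other, were chosen after their values were seen. They had log2 ratios of -1.78 and -1.93 and held 9.21% ± 0.167 of nuclear and 19.4% ± 1.85 of cytoplasmic TPM and 8.72% ± 0.219 of nuclear and 20.4% ± 1.01 of cytoplasmic TPM (SD, n = 3). RN7SL1 was not called with limma on log2(TPM + 0.1) (-1.26, adjusted p = 0.051). Of the 8 structural RNAs tested 2 were nuclear and 6 cytoplasmic, in each case with all 3 libraries of one fraction above the other. RNA released from nuclei broken in the lysis would count as cytoplasmic here. Its part in the values of RPPH1, RN7SK and the others was not tested, so these calls describe the fractions and not the location in cells.

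The Y RNAs, small RNAs bound by the Ro60 protein, were among the cytoplasmic ones, and the sequence of RNY1 is shown as the member with the larger ratio of the 2 named. Capitals mark the terminal run of T, the stop signal of RNA polymerase III.
RNY1 (GRCh38 chr7:148987136-148987248, minus strand): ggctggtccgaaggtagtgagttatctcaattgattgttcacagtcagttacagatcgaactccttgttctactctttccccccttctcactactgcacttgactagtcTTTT
RNY1 measured 142, 131 and 57.01 TPM in nuclear and 826, 839 and 448 TPM in cytoplasmic RNA, a log2 ratio of -3.09 (SE 0.344, adjusted p = 0.00014). RNY3 measured 98.3, 97.6 and 60.3 against 387, 496 and 250.2 TPM, a ratio of -2.52 (SE 0.285, adjusted p = 0.00015). In both genes passage 29 was the lowest library of each fraction.

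Long noncoding RNAs that are known from the nucleus were nuclear without exception among the 10 tested, against 35.9% of all genes. KCNQ1OT1, an imprinted antisense transcript, had a log2 ratio of 5.16 with 1.93 ± 0.42 TPM in nuclear and 0.0384 ± 0.0177 TPM in cytoplasmic RNA (SD, n = 3). FTX, a noncoding gene of the X chromosome, measured 41.6, 49 and 37.7 against 2.84, 1.96 and 1.63 TPM, a ratio of 3.94 (SE 0.152, adjusted p = 4.2e-06). LINC-PINT measured 56.6, 63.5 and 44.5 against 2.23, 1.68 and 1.503 TPM, and TUG1, which the annotation types as protein coding, was the lowest of the 10 with a ratio of 0.91. The median of the list was 3.87. It ranged from 1.66 to 4.36 over the scalings. For LINC-PINT, TUG1 and KCNQ1OT1 the canonical transcript of the annotation was not among the transcripts of the tables, so their sums cover other transcripts of the gene.

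Long noncoding RNAs described from the cytoplasm did not form one group. Of 9 tested, 3 were cytoplasmic, 2 nuclear and 4 were not called, with a median of -0.35 that reached 0.14 with library size alone. Without nuclear passage 29, 5 were cytoplasmic. ZFAS1 measured 131, 139 and 128 TPM in nuclear and 140.5, 140 and 217 TPM in cytoplasmic RNA, groups that are only just apart, and its log2 ratio was -0.81 (SE 0.202, adjusted p = 0.0082). It lost the call with library size alone (-0.32, adjusted p = 0.18) and with limma. DANCR measured 50.8, 47.7 and 35.7 against 55.6, 55.3 and 33.95 TPM, with overlapping groups and a ratio of -0.98, and it was not called with limma on log2(TPM + 0.1) (adjusted p = 0.74). NORAD, which sequesters Pumilio proteins, had a ratio of -0.27 (adjusted p = 0.085). GAS5, which hosts small nucleolar RNAs, was nuclear at 439, 452 and 364 against 103, 99.8 and 207 TPM, a ratio of 1.83 (SE 0.294, adjusted p = 0.00088). Transcripts typed retained intron held a mean of 79.8% of the nuclear and 15.4% of the cytoplasmic TPM of GAS5. Its nuclear call is one of the gene total, and a ratio of its spliced RNA alone is not given here. EPB41L4A-AS1 was called nuclear by reads (1.45), but its TPM was 18.9, 17.5 and 14.3 in nuclear and 16.4, 18.4 and 31.6 in cytoplasmic RNA, and the sign reversed when reads were scaled by transcript length. Canonical transcripts of DANCR, GAS5 and EPB41L4A-AS1 were not among those of the tables.

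Host genes of small nucleolar RNAs, whose introns carry those RNAs and whose spliced product is exported in part, were spread over both fractions. Of 24 tested 15 were nuclear and 5 cytoplasmic, and the median log2 ratio was 0.77. SNHG22 measured 99.97, 106 and 129 TPM in nuclear and 2.49, 2.29 and 1.57 TPM in cytoplasmic RNA (37.05-fold), and SNHG26 34.4, 37.99 and 27.1 against 2.13, 1.96 and 1.11 TPM. SNHG16 went the other way, at 108, 97.6 and 86.1 TPM in nuclear and 209, 190.1 and 176 TPM in cytoplasmic RNA (2.92-fold), as did SNHG6 at 116, 108 and 107 and 197, 192 and 190.4 TPM. The groups of each of these 4 genes did not overlap. Canonical transcripts of SNHG26, SNHG16 and SNHG6 were not among those of the tables, and with the 11 host genes that had theirs the counts were 8 nuclear and 2 cytoplasmic.

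Among genes that passed the filter, the large classes of long noncoding genes were nuclear more often than the background, with exceptions. Of 2247 annotated intergenic LINC genes 243 were tested, with 162 nuclear and 18 cytoplasmic. Their median was 1.55 (0.55 to 2.04 over the scalings). Of 1808 genes named as antisense to another gene 444 were tested, with 263 nuclear and 46 cytoplasmic. Their median was 1.11 (0.48 to 1.59 over the scalings). With 0.5 CPM added, passage medians were 0.79 to 0.89 for LINC and 0.63 to 0.69 for antisense genes. LINC02603 measured 14.6, 14.7 and 13.1 TPM in nuclear and 0.193, 0.267 and 0.138 TPM in cytoplasmic RNA, a log2 ratio of 5.63. SLC16A4-AS1 measured 8.94, 8.85 and 6.52 against 0.0622, 0.0929 and 0.0583 TPM, a ratio of 6.3. On the cytoplasmic side, LINC02693 measured 0.168, 1.34 and 0.681 TPM in nuclear and 2.8, 2.39 and 1.09 TPM in cytoplasmic libraries, with overlapping groups and a ratio of -2.41 (SE 0.554, adjusted p = 0.0054). PIK3CD-AS2 measured 1.05, 1.43 and 1.55 against 2.93, 3.09 and 3.33 TPM, a ratio of -1.73. The canonical transcripts of both LINC genes were not among those of the tables.

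Host genes of microRNAs are the long precursors that the enzyme Drosha cuts in the nucleus. Of 81 annotated 28 were tested. 25 of the 28 were nuclear and none cytoplasmic, with a median log2 ratio of 2.73 (1.29 to 3.21 over the scalings). MIR663AHG measured 53.9, 35.3 and 59.2 TPM in nuclear and 0.262, 0.0933 and 0.0441 TPM in cytoplasmic RNA, a ratio of 8.04 (SE 0.424, adjusted p = 7.2e-06). MIR17HG, the host of the miR-17~92 cluster (chr13:91347686-91397592), measured 17.4, 17.1 and 10.9 against 0.324, 0.292 and 0.0814 TPM, a ratio of 6.42 (SE 0.323, adjusted p = 6.4e-06). Both lacked the canonical transcript. MIR200CHG, at -0.01, MIR762HG, at 0.25, and MIR210HG, at 0.88, were the 3 not called. Mature microRNAs are too short for these libraries and were not measured. 2 pairs of mature microRNAs inside MIR17HG with a common seed are shown with bases 2 to 8 in capitals, as the products that Drosha and Dicer release from this nuclear host.
hsa-miR-17-5p: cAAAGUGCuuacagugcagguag
hsa-miR-20a-5p: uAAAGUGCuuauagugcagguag
hsa-miR-19a-3p: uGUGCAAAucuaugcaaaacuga
hsa-miR-19b-3p: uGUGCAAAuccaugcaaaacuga
The first pair shares the seed AAAGUGC and the second the seed GUGCAAA. These sequences are from RefSeq (GRCh38.p14), and all lie inside the host gene on the plus strand.

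Messenger RNAs of the Argonaute proteins and their TNRC6 partners, the proteins of microRNA silencing that the series studies, had a median log2 ratio of 0.0771. Of 7 genes 2 were nuclear and 1 cytoplasmic. With library size alone 6 were nuclear and none cytoplasmic, and the median ranged from 0.0771 to 1.02 over the scalings. AGO3 measured 19.9, 23.3 and 18.2 TPM in nuclear and 9.53, 9.02 and 6.62 TPM in cytoplasmic RNA, a log2 ratio of 0.96 (SE 0.123, adjusted p = 0.00028). TNRC6B had a ratio of 0.44 (SE 0.079, adjusted p = 0.0015). AGO1 measured 12.6, 11.8 and 9.34 against 14.4, 13.7 and 10.7 TPM, groups that overlap, with a ratio of -0.45 (SE 0.114, adjusted p = 0.0089) whose sign flipped to 0.0318 with library size alone. It also lost its call with TMM from protein-coding genes (-0.21, adjusted p = 0.13), upper-quartile factors (-0.18, adjusted p = 0.12) and limma (-0.20, adjusted p = 0.32, with 0.1 TPM added), with a mean count of 50 and with protein-coding transcripts only. AGO2, added after its value was seen, measured 55.2, 57.8 and 45.97 against 39.8, 37.1 and 31.1 TPM, and its scaled ratio was -0.07 (adjusted p = 0.58). It was called nuclear with library size alone (0.40, adjusted p = 0.0095) and with limma on log2(TPM + 0.1) (0.56, adjusted p = 0.0083) and log2(TPM + 1) (0.55, adjusted p = 0.0088).

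Mitochondrially encoded RNAs marked the cytoplasmic extreme. Of 19 genes tested 17 were cytoplasmic and none nuclear, with a median log2 ratio of -4.81. MT-CO3, a subunit of cytochrome c oxidase, measured 261, 200.4 and 219.6 TPM in nuclear and 14962, 14406 and 14748 TPM in cytoplasmic libraries, 92.7-fold higher in the cytoplasm with a ratio of -6.53 (SE 0.165, adjusted p = 1.8e-06). MT-ND4, a subunit of complex I, measured 204, 156 and 183 against 9765, 9661 and 9279 TPM. MT-ND3 and MT-ATP6 had ratios of -6.15 and -6.14, and the groups of all 4 were far apart. Mitochondrial RNA made up 0.657% ± 0.219 of nuclear and 10.6% ± 0.546 of cytoplasmic TPM (SD, n = 3), and all nuclear libraries were below all cytoplasmic ones (exact two-sided permutation test, p = 0.1, the smallest that 3 against 3 libraries allow). MTATP6P1, a nuclear pseudogene nearly identical to MT-ATP6, followed with 26.5, 18.7 and 17.2 against 992, 949.8 and 743 TPM, and its reads cannot be told apart from mitochondrial ones. The same holds for MTND4P12, with a ratio of -6.62. The 2 mitochondrial genes that were not called were MT-TF, at -0.08, and MT-ND6, at -0.01 (adjusted p = 0.97). MT-ND6, added after its value was seen, is the only protein gene on the light strand, and measured 3709.8, 2027 and 1383 TPM in nuclear and 1572, 2391 and 1049 TPM in cytoplasmic RNA.

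Messenger RNAs of the cytosolic ribosome were cytoplasmic in 78 of 83 tested genes, against 34.8% of all genes, and nuclear in 3. Their median log2 ratio was -1.58 and stayed between -1.82 and -1.10 over the scalings. RPS12 measured 254, 267 and 289 TPM in nuclear and 995, 941 and 964 TPM in cytoplasmic RNA, 5.11-fold higher in the cytoplasm with a ratio of -2.35 (SE 0.11, adjusted p = 5.9e-06). RPL39 measured 351, 365 and 325 against 1268, 1196 and 1178 TPM, a ratio of -2.18. RPS7, at 1.47, and RPS27, at 1.09, were nuclear, and both lacked their canonical transcript in the tables. RPS7, for example, reached 31.9, 31.2 and 21.9 TPM in nuclear and 22.5, 20.2 and 16.3 TPM in cytoplasmic RNA, with overlapping groups, and RPS27 lost its call without nuclear passage 28 (adjusted p = 0.057). Among the 75 ribosomal protein genes that had the canonical transcript, 75 were cytoplasmic.

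Other housekeeping messages leaned the same way. Mitochondrial ribosomal proteins, which are encoded in the nucleus, were cytoplasmic in 71 of 78 genes and nuclear in 2, with a median log2 ratio of -1.09. MRPL41 measured 9.06, 10.8 and 9.63 TPM in nuclear and 26.6, 28.4 and 25.2 TPM in cytoplasmic RNA, and MRPL12 43.5, 37.9 and 29.8 against 109.8, 97.6 and 70.6 TPM. The exception MRPS25 measured 36.2, 35.2 and 31.8 against 15.5, 16.5 and 13.1 TPM, a ratio of 1.44 (SE 0.116, adjusted p = 3.1e-05). Nuclear-encoded subunits of the respiratory chain were cytoplasmic in 72 of 80 genes and nuclear in 2, with a median of -1.42. COX8A, a subunit of cytochrome c oxidase, measured 56.3, 55.6 and 61.99 against 191, 176 and 179 TPM, a ratio of -2.16 (SE 0.101, adjusted p = 5.9e-06). The nuclear exceptions were ATP5MC2 at 1.87 and ATP5MGL at 3.05, both of subunits of ATP synthase, and the sign of ATP5MC2 reversed when only transcripts typed protein coding were summed.

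Proteasome subunits were cytoplasmic in 33 of 36 genes, with a median of -0.95, and none was nuclear. PSMB10, an immunoproteasome subunit, measured 6.47, 4.91 and 4.53 TPM in nuclear and 16.6, 15.3 and 11.1 TPM in cytoplasmic RNA, and PSMB6 measured 58.2, 53.4 and 45.9 against 123.2, 112 and 93.2 TPM. Genes with the prefix of a translation initiation or elongation factor were cytoplasmic in 47 of 65 cases and nuclear in 6, with a median of -0.80. EIF5A measured 263, 249 and 223 against 613, 567 and 468 TPM and EIF4EBP1, which binds the cap-binding factor, 21.05, 21.3 and 33.2 against 60.5, 56.6 and 75.7 TPM. EIF2B5 (3.15) and EIF4A3 (2.57), the latter a component of the exon junction complex, were nuclear, but the canonical transcript of neither was among those of the tables. EIF2B5 reached 26.8, 26.3 and 19.7 TPM in nuclear and 2.42, 1.71 and 2.07 TPM in cytoplasmic RNA.

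Glycolysis enzymes were cytoplasmic in 12 of 17 genes and nuclear in none, with a median of -0.68 and a range over the scalings from -0.68 to -0.08. TPI1 measured 238, 235 and 205 TPM in nuclear and 456, 419.8 and 346 TPM in cytoplasmic RNA, a ratio of -1.38 (SE 0.1, adjusted p = 2e-05), and PGAM1 had a ratio of -1.33. Cytoskeletal and cytosolic proteins were cytoplasmic in 23 of 28 genes, with a median of -1.03. FTL and FTH1, the light and heavy chains of the iron store ferritin, led them: FTL measured 147, 152 and 166 against 863, 832 and 762 TPM, 7.52-fold higher in the cytoplasm, and FTH1 280.1, 281 and 403 against 1310.4, 1260.3 and 1389 TPM. ACTB, the gene of beta-actin, was the 1 nuclear member at 0.71, but only 77.6, 99.5 and 56.7 TPM in nuclear and 32.3, 27.2 and 26.8 TPM in cytoplasmic RNA were assigned to it, without its canonical transcript, so the value covers its other transcripts only. The processed pseudogene FTLP3 followed FTL with a ratio of -3.11, and reads of such copies can be shared with the parent.

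Messages for secreted and membrane proteins, which are translated on the endoplasmic reticulum that the washing steps strip from the nuclei, were cytoplasmic in 27 of 60 genes and nuclear in 5, or in 8 without cytoplasmic passage 29. Their median of -0.37 stands beside -0.27 for all protein-coding genes and reached 0.22 over the scalings. CD63 measured 67.1, 64.6 and 68.03 TPM in nuclear and 163, 146 and 139 TPM in cytoplasmic RNA, a ratio of -1.68 (SE 0.084, adjusted p = 6.3e-06), and CD81, a further tetraspanin, had a ratio of -1.404. LAMA5, a long laminin gene, was nuclear at 27.9, 31.7 and 34.2 against 4.42, 4.83 and 4.61 TPM, a ratio of 1.87 (SE 0.158, adjusted p = 3.8e-05). Immediate early genes, whose messages are short-lived, were cytoplasmic in 5 of 18 genes and nuclear in none. JUND measured 18.5, 17.1 and 30.3 against 32.2, 29.3 and 56.2 TPM, with passage 29 highest in both fractions and overlapping groups, and FOSL1 had a ratio of -1.296 (SE 0.145, adjusted p = 0.00014). The median of -0.41 reached 0.19 over the scalings, and without nuclear passage 29 the cytoplasmic genes numbered 8. Of the 6 colon epithelial markers tested 4 were cytoplasmic, among them EPCAM (102, 102 and 90.1 against 153, 149 and 122.8 TPM) and CDX2, with ratios of -1.04 and -1.197. The TPM values of CDX2 overlapped, and it was not called with limma on log2(TPM + 0.1) (-0.58, adjusted p = 0.073) or log2(TPM + 1) (-0.47, adjusted p = 0.07).

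Replication-dependent histone messages end in a stem-loop in place of a poly(A) tail and are not spliced. Of 52 tested 48 were cytoplasmic and 2 nuclear, with a median log2 ratio of -1.41 (-1.52 to -0.88 over the scalings). H4C1 measured 114, 129 and 82.6 TPM in nuclear and 278, 299.8 and 185 TPM in cytoplasmic RNA, a ratio of -1.74 (SE 0.195, adjusted p = 0.00015), and H3C15 measured 61.7, 51.1 and 35.01 against 131, 105 and 102 TPM. Passage 29 was lowest in both fractions of both genes. H4C15, called nuclear at 0.75, had overlapping TPM of 16.7, 17.5 and 12.5 in nuclear and 17.3, 17.4 and 10.5 in cytoplasmic RNA, and its sign reversed when reads were scaled by transcript length. The last 60 bases of 49 histone transcripts were read for the most common 16-base stretch whose ends can pair. It is shown with the paired letters in capitals.
Histone stem-loop: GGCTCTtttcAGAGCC
26 of the 49 held these letters exactly and 37 with at most 1 mismatch. Of 12424 other tested coding genes 2 (0.0161%) held them exactly. The letters were picked from these same histones, so their excess over other genes was set by that choice and is no test. The 37 had a median log2 ratio of -1.41 with 34 cytoplasmic calls, and the 12 without a match had a median of -1.40 with 11.

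Zinc finger transcription factor genes were nuclear in 165 of 353 cases (46.7%) and cytoplasmic in 54, with a median log2 ratio of 0.35 (0.26 to 0.84 over the scalings). ZNF789 measured 7.81, 9.22 and 5.26 TPM in nuclear and 0.971, 1.03 and 0.653 TPM in cytoplasmic RNA, a ratio of 2.75 (SE 0.168, adjusted p = 1.1e-05). ZNF519 measured 23.7, 25.8 and 13.6 against 3.28, 3.17 and 1.51 TPM, a ratio of 2.74. ZNF358 and ZNF593 went the other way, with ratios of -1.94 and -1.38, and ZNF358 measured 2.89, 2.71 and 3.13 against 6.78, 6.06 and 7.14 TPM.

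Splicing regulators and genes known for introns that are detained in the nucleus were of interest because their gene totals mix spliced and unspliced transcripts. All 4 CLK kinases, which phosphorylate SR proteins, were nuclear. CLK4 measured 17.2, 17.02 and 14.1 TPM in nuclear and 2.71, 2.14 and 2.61 TPM in cytoplasmic RNA, a ratio of 2.196 (SE 0.0985, adjusted p = 5.2e-06), and CLK1 measured 38.4, 42.6 and 45.1 against 8.696, 10.2 and 8.64 TPM, a ratio of 1.77 (SE 0.154, adjusted p = 4.3e-05). Of 12 genes with detained introns 7 were nuclear and 1 cytoplasmic, led by OGT, the O-GlcNAc transferase, at 93.04, 98.6 and 105 against 11.3, 10.8 and 6.86 TPM and a ratio of 2.696 (SE 0.166, adjusted p = 1.1e-05). Of 11 SR protein genes 4 were nuclear and 3 cytoplasmic, or 5 without cytoplasmic passage 29. SRSF5 measured 162, 172 and 129.5 against 71.5, 62.8 and 44.4 TPM, a ratio of 1.18, SRSF11 had a ratio of 0.77, and SRSF9 lay at -1.09. When only transcripts typed protein coding were summed, CLK1, SRSF5 and SRSF11 had ratios of -0.0329, -0.0785 and -0.00834, and of the SR genes none was nuclear and 5 were cytoplasmic. With those transcripts 2 of the CLK kinases were nuclear and 1 was cytoplasmic, with a median of 0.13 in place of 1.23, and the detained-intron genes had 3 nuclear and 3 cytoplasmic calls, with a median of -0.0329 in place of 0.91.

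Transcripts typed retained intron were quantified separately by Salmon. In total RNA, intron reads of precursors not yet spliced can be assigned to such transcripts as well. Their part in the shares below was not tested, so a share is not a measure of stable intron retention. In 6952 genes that express both such a transcript and another, the share of the gene's TPM in retained-intron transcripts was compared with limma on the log2 ratio of the 2 sums, with 0.1 TPM added to each. The share was higher in nuclear RNA in 5780 genes (83.1%) and lower in 95 (1.37%). The median share was 22.3%, 23.0% and 21.9% in nuclear passages 27, 28 and 29 and 1.93%, 1.95% and 1.38% in the cytoplasmic ones. Of the 5780 genes 5676 (98.2%) had every nuclear share above every cytoplasmic one. The share exceeded 50% in 861 genes in the nucleus and in 181 in the cytoplasm. Lists of genes are read against that 83.1%. The count was 62 of 68 for cytosolic ribosomal proteins, 9 of 9 for SR proteins, 8 of 9 for genes with detained introns and 110 of 142 for zinc finger genes.

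The largest changes on the log2 ratio scale were in CAV1, COX20, SAT1, RYK and EEF1G. In SAT1, the rate-limiting enzyme of polyamine breakdown, retained-intron transcripts held 73.2, 75.7 and 73.6% of the gene's TPM in nuclear and 2.11, 1.79 and 1.497% in cytoplasmic libraries, a difference of 7.26 (SE 0.227, adjusted p = 6.1e-06). COX20, an assembly factor of cytochrome c oxidase, measured 39.5, 40 and 39.9% against 0.206, 0.184 and 0.0964%, and CAV1, the coat protein of caveolae, 19.8, 20.99 and 17% against 0.0805, 0 and 0%. RYK, a Wnt receptor, measured 83.4, 81.4 and 83.8% against 5.79, 2.27 and 0.298%. In EEF1G, an elongation factor subunit, the share was only 2.09, 1.96 and 1.11% in nuclear RNA and 0 in every cytoplasmic library. For EEF1G and CAV1, whose cytoplasmic shares were 0 in 3 and 2 libraries, the size of the log2 change follows from the added 0.1 TPM and the level of the gene, so their place in this order is not a measured one. Gene totals of CAV1 and EEF1G were cytoplasmic all the same, with log2 ratios of -1.35 and -1.51.

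Genes with detained introns had a median share of 47.1% in nuclear and 3.20% in cytoplasmic RNA, against 22.4% and 2.02% over all 6952 genes. Of the genes named here, MAT2A and SRSF7 lay below the nuclear median of all genes. TRA2B, a splicing activator, measured 89.1, 90.4 and 92.6% in nuclear and 9.22, 9.63 and 3.96% in cytoplasmic RNA, a difference of 6.98 (SE 0.399, adjusted p = 6.9e-06), and TRA2A averaged 50.3% against 2.17%. The means were 61.7% against 4.02% for CLK1, 55.9% against 12.2% for OGT and 40.6% against 2.66% for SRSF5. SRSF2 averaged 28.98% against 3.203% and MAT2A, which makes the methyl donor S-adenosylmethionine, 21.6% against 0.95%. In SRSF7 the averages were 8.52% against 0.208%, and its gene total was not called (log2 ratio 0.07). CLK4 was the 1 detained-intron gene not called, at 46.9, 43.7 and 50.7% against 36.9, 26.1 and 55.6%, with groups that overlap. In GAPDH the share was 1.38% against 0.16%.

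Few genes had a lower share in the nucleus, and those calls are less certain. Where retained-intron TPM is near 0, the added 0.1 TPM lets the ratio follow the level of the gene. Of the 95 genes called lower 55 had every cytoplasmic share above every nuclear one, and 21 had a higher mean share in nuclear RNA. PCLAF, a factor bound to the replication clamp PCNA, measured 0, 4.53 and 3.79% in nuclear and 33.2, 38.6 and 39.7% in cytoplasmic RNA, and its groups did not overlap. In ENSG00000256591 the shares were 71.3, 57.5 and 0% against 98.8, 87.01 and 84.5%, with nuclear passage 29 at 0, and the call was lost without any 1 of the cytoplasmic libraries (adjusted p of 0.051 to 0.11). LINC-PINT and TBC1D32 had a share above 0 in 1 cytoplasmic library each (9.79% at passage 29 and 6.42% at passage 27) and of at most 1.13% in any nuclear one. They stayed called without that library, at -4.42 and -2.91, with cytoplasmic shares of 0, so these calls do not show a difference in share. ATP11B, at 7.305, 0 and 0% against 6.51, 12.8 and 10.7%, lost its call without cytoplasmic passage 28 or 29 or nuclear passage 28 or 29.

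**Figure D3:**
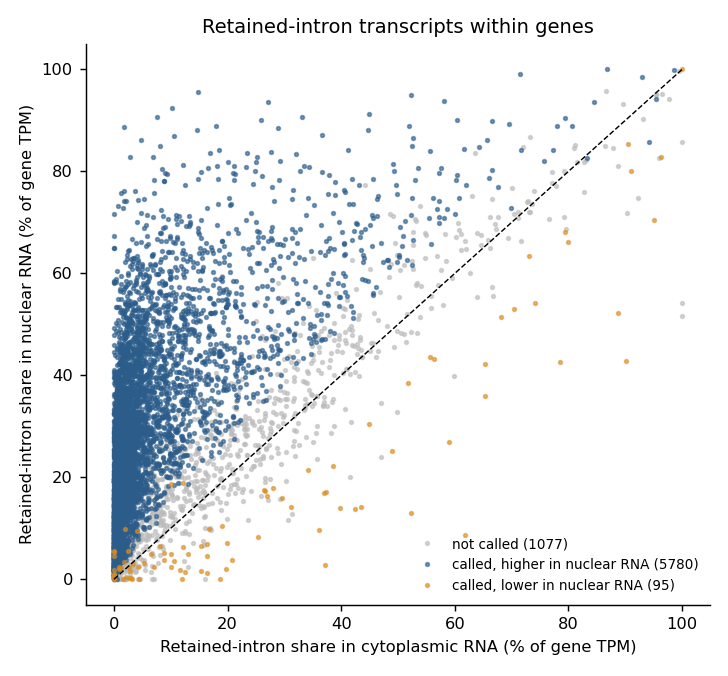
Share of a gene's TPM in retained-intron transcripts, in percent, in cytoplasmic (x axis) and nuclear (y axis) RNA of wild-type cells, as means of 3 libraries for 6952 genes. The 5780 genes called higher in nuclear RNA lie mostly above the dashed line of equal shares, and of the 95 called lower 21 lie above it as well.

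Over single transcripts, 24268 of 62064 (39.1%) were higher in nuclear and 15155 (24.4%) in cytoplasmic RNA. Transcripts typed retained intron had 11116 of 13681 (81.3%) nuclear and 434 cytoplasmic, with a median log2 ratio of 3.69. Those with a protein-coding type had 5681 of 32724 nuclear and 12459 cytoplasmic and a median of -0.62. Transcripts marked for nonsense-mediated decay, a surveillance pathway tied to translation, were divided, with 1137 nuclear and 980 cytoplasmic of 4501 and a median of 0.00. Transcripts of coding genes without a defined reading frame were more often nuclear, at 2887 against 743 of 5633. Salmon assigns reads of shared exons among the transcripts of a gene, so transcript values carry that error beyond the spread between libraries. Intron reads of unspliced precursors can also fall on retained-intron transcripts, and their part was not tested.

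The classes added up to unlike libraries. Retained-intron transcripts made up 5.87% ± 0.515 of nuclear and 1.55% ± 0.105 of cytoplasmic TPM (SD, n = 3), and long noncoding RNA 1.698% ± 0.0351 of nuclear and 0.527% ± 0.0166 of cytoplasmic TPM. Small nucleolar RNA made up 5.62% ± 0.424 of nuclear and 0.0496% ± 0.0144 of cytoplasmic TPM and small nuclear RNA 15.9% ± 0.719 of nuclear and 6.39% ± 0.157 of cytoplasmic TPM. RN7SK, which is of the small nuclear type, alone held 4.66% of nuclear and 5.96% of cytoplasmic TPM. By estimated reads small nuclear RNA held 1.41% ± 0.118 of nuclear and 1.31% ± 0.0362 of cytoplasmic libraries, with overlapping shares (exact two-sided permutation test, p = 0.3). Most of the cytoplasmic share was RN7SK, which alone held 0.862% of nuclear and 1.283% of cytoplasmic reads. RMRP alone took 20.1% ± 2.29 of nuclear and 1.41% ± 0.185 of cytoplasmic TPM, and 2.502% ± 0.451 of nuclear and 0.204% ± 0.035 of cytoplasmic estimated reads, since TPM divides by length and this RNA is short. Protein-coding transcripts held 26.3% ± 2.01 of nuclear and 33.1% ± 2.19 of cytoplasmic TPM, but 74.2% ± 0.958 of nuclear and 74.5% ± 1.095 of cytoplasmic estimated reads. In each of these classes all 3 libraries of one fraction lay above the other on the TPM scale (exact two-sided permutation test, p = 0.1, the smallest possible), whereas protein-coding shares of the reads overlapped (p = 0.7).

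Position in the genome went with the nuclear calls. Long noncoding genes that lie inside another gene on the same strand were nuclear in 527 of 570 cases (92.5%) with a median log2 ratio of 3.80. Those that overlap no other gene were nuclear in 359 of 500 (71.8%) and cytoplasmic in 24, with a median of 2.04, and those overlapped on the opposite strand only had 525 nuclear and 79 cytoplasmic of 860. Pseudogenes split further: 537 of 636 were nuclear inside a gene on the same strand (median 4.07), 145 of 314 with no overlap (median 0.35) and 41 of 162 when overlapped on the other strand only, where 85 were cytoplasmic (median -0.91). HEBP2P1, a processed pseudogene (chr2:156033247-156034080) with no cytoplasmic read, measured 3.73, 3.82 and 3.16 TPM in nuclear RNA and was at least 93.98-fold higher there. Among coding genes, the taste receptors TAS2R19 and TAS2R30 on chromosome 12 had the largest nuclear ratios at a mean of 1 TPM or more, 6.36 and 6.26. TAS2R30 measured 14.9, 13.8 and 12.2 against 0.0988, 0.221 and 0.0521 TPM. Reads of an unspliced host or neighbour on the same strand count toward an embedded gene, and their part in these ratios was not tested. Protein-coding genes that overlap no other gene were nuclear in 727 and cytoplasmic in 1897 of 3941, with a median of -0.41.

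**Figure D4:**
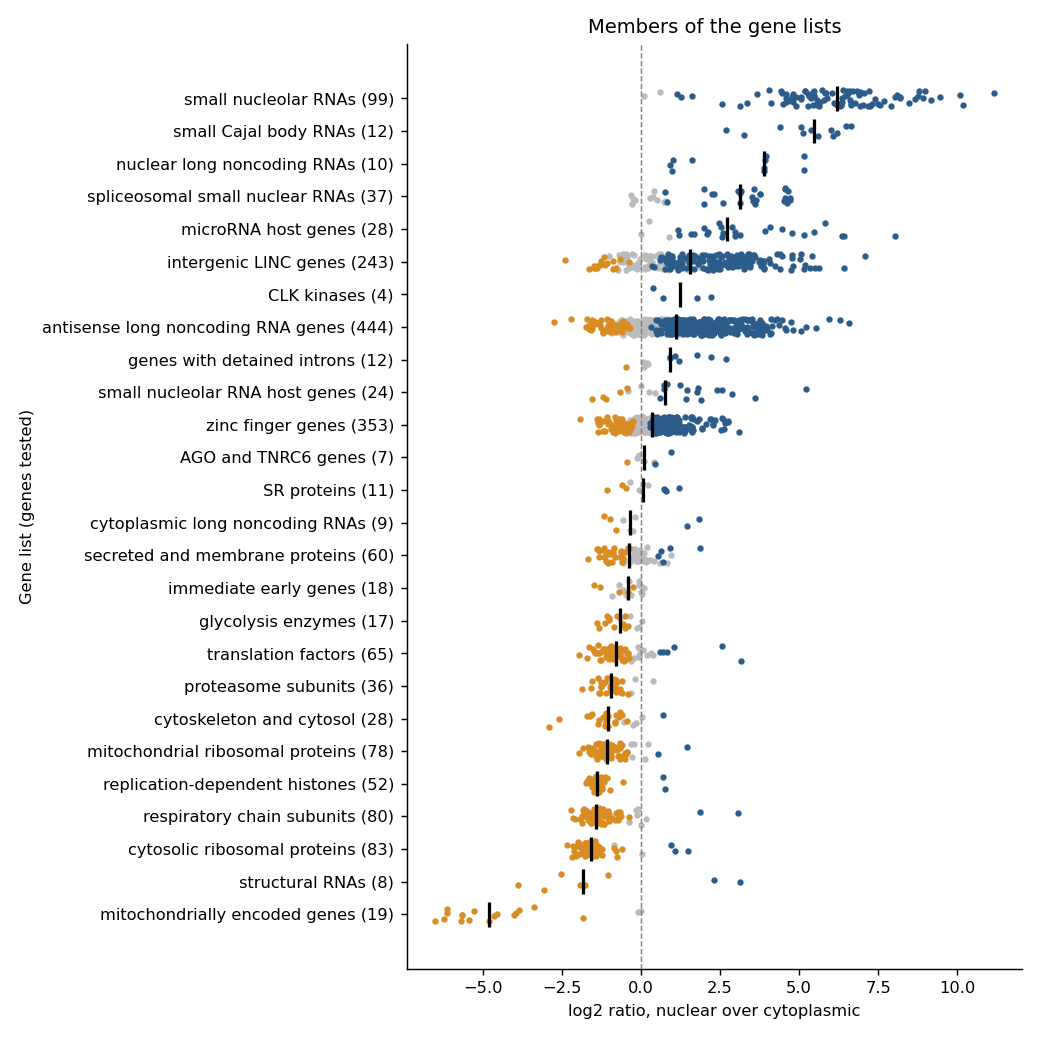
Log2 ratio of nuclear over cytoplasmic RNA for the tested members of 26 gene lists, 1 point a gene, in blue where called nuclear, in orange where called cytoplasmic and in grey otherwise, with a bar at the median. Lists are ordered by fitted median, from small nucleolar RNAs (median 6.20, or 5.48 with genes at 0 in the cytoplasm set to their bound) to mitochondrially encoded genes (median -4.81).

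Length of a coding gene went with its ratio. Over 13129 protein-coding genes of the nuclear genome, the log2 ratio correlated with the length of the most abundant transcript (Spearman's rho 0.28), with the length of the gene (0.31) and with the number of exons (0.20), and inversely with GC content (-0.16). Genes are not independent replicates and all points share the 6 libraries, so these are descriptions. Passages gave 0.27 to 0.29 for transcript length taken singly. Genes whose transcript is 1000 to 2000 nt long had a median of -0.66 and 58.0% cytoplasmic calls, and those above 8000 nt a median of 0.44, 54.1% nuclear and 9.98% cytoplasmic calls. Genes that span up to 2000 nt had a median of -1.21 and those over 200000 nt 0.29. Genes with 6 to 10 exons in that transcript had a median of -0.49, and those with more than 20 had 0.28. With only transcripts typed protein coding the correlation with transcript length was 0.38 over 12748 genes and that with gene length 0.35.

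The wild-type ratios were last set against those of the 4 knockout lines in a fit of all 30 RNA-seq libraries. The targeted AGO1 was at 10.7 to 14.4 TPM in wild-type cytoplasm and at 0.807 to 1.02 TPM in that of the 3 lines edited in it. AGO2 was at 31.1 to 39.8 TPM in wild-type cytoplasm and 16.6 to 29.2 TPM in that of the lines edited in it. AGO3 was at 6.62 to 9.53 TPM in wild-type cytoplasm and 8.02 to 9.33 TPM in that of the AGO1/2/3 line, where the ranges overlap, so its RNA level does not check that label. The wild-type ratio was higher than the mean of the knockout lines in 2173 of 20104 genes (10.8%) and lower in 2861 (14.2%), or 4570 when passages were paired as a replicate block. Nuclear long noncoding RNAs had a higher ratio in wild-type cells in 8 of 10 cases and a lower one in none, with medians of 3.83 in the wild type, 2.93 without AGO1, 2.89 without AGO2, 2.18 without AGO1/2 and 2.52 without AGO1/2/3. For MALAT1 the log2 ratio was 3.83 in the wild type, 2.804 without AGO1, 2.75 without AGO2, 2.12 without AGO1/2 and 2.48 without AGO1/2/3, a difference of 1.29 (SE 0.143, adjusted p = 9e-07). NEAT1 had 3.89 in wild-type cells and 2.62 to 3.08 in the knockout lines, a difference of 0.98 (SE 0.211, adjusted p = 0.0012). All long noncoding genes together had 563 higher and 17 lower of 3659. Glycolysis enzymes had lower wild-type ratios in 15 of 17 genes, respiratory chain subunits in 53 of 80, proteasome subunits in 22 of 37 and replication-dependent histones in 22 of 55, with none higher. Cytosolic ribosomal proteins had 34 lower and 4 higher of 84. Mitochondrially encoded genes, the most cytoplasmic list, had 3 higher and none lower of 23. For GAPDH the ratio was -1.198 in the wild type, -0.78 without AGO1, -0.81 without AGO2, -0.20 without AGO1/2 and -0.61 without AGO1/2/3, a difference of -0.60 (SE 0.0867, adjusted p = 2.2e-05). Protein-coding genes had 1302 higher and 2791 lower of 13926.

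In all 5 lines small nucleolar RNAs had the highest fitted median of the 28 lists (6.21 in the wild type, 5.75 without AGO1, 5.74 without AGO2, 4.402 without AGO1/2 and 5.62 without AGO1/2/3), which is unbounded for members with no cytoplasmic read, and mitochondrially encoded genes the lowest (-4.597 in the wild type, -4.33 without AGO1, -4.597 without AGO2, -5.78 without AGO1/2 and -4.31 without AGO1/2/3). The wild type was taken at passages 27 to 29, and its libraries were shallower, at 20431557 to 26536692 nuclear and 39476205 to 43281746 cytoplasmic reads, than those of the knockout lines, from passages 6 to 14 with 31252459 to 54097984 and 66451720 to 79731793. Genotype, clone, passage, depth and the fractionation of each line cannot be told apart in this design.

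**Figure D5:**
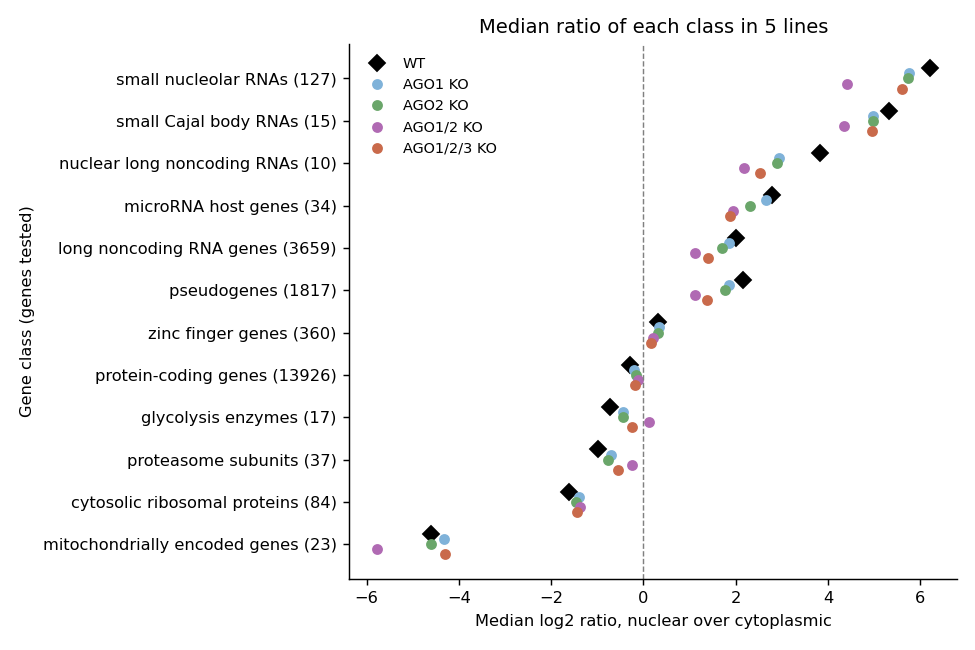
Median log2 ratio of nuclear over cytoplasmic RNA of 12 gene classes in wild-type cells (black diamonds) and the 4 AGO knockout lines (coloured points). For nuclear long noncoding RNAs the wild-type median of 3.83 lies above the 2.18 to 2.93 of the knockout lines, and for glycolysis enzymes the wild-type median of -0.72 lies below their -0.45 to 0.12.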

How the data were processed

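The authors fractionated the cells, removed ribosomal RNA, made stranded total RNA libraries and sequenced paired ends. Per the submitters' processing notes, reads were aligned with STAR 2.5.3a and quantified with Salmon 0.11.0 on hg38. The deposited estimated counts are the reads Salmon assigned to each transcript, unnormalized, and the deposited TPM values, also made by the authors with Salmon, are scaled for effective length and library total. The release of their annotation was unclear, so GENCODE 44 (GRCh38) gave gene names, types and coordinates. Of 200401 transcripts 195887 matched by identifier and 4514 did not, and the latter held 2.6% to 3.7% of wild-type reads. 158 copies on the Y pseudoautosomal region were left out. Where a gene's canonical transcript was unmatched, its sum covers its other transcripts only. The canonical transcript was present for 16385 of 17523 tested genes, with 5733 nuclear and 5872 cytoplasmic calls.

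Estimated counts were summed by gene, rounded and fitted by the quasi-likelihood method of edgeR 4.0.16 (R 4.3.3) over the 6 wild-type libraries, with TMM factors and filterByExpr at a minimum count of 10. Retained-intron shares were fitted with limma 3.58.1 for genes with at least 1 TPM. The wild-type to knockout contrast used all 30 RNA-seq libraries. The 8 eCLIP samples are not analysed here. Python 3.11.15, pandas 2.3.3, numpy 2.4.6, scipy 1.17.1, matplotlib 3.10.9, the R package data.table (1.17.8) and, for an alternative, DESeq2 1.42.0 were used. The scripts were tested on simulated data.

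The genes named are NEAT1, MALAT1 and GAPDH, the 10 with the largest change in each direction that were called with groups not overlapping and a mean of at least 10 TPM, and up to 2 in each direction from each of 28 gene lists and gene type at 1 TPM or more. For retained introns and the contrast with knockout lines they are the 5 largest in each direction at 10 TPM or more. XIST and Y-linked genes are not named, and some items are not reported here. Other genes were named after their values were seen. They are members of the lists that show a range, an exception or an uncalled gene. Lists of proteins defined by symbol pattern were limited to protein-coding genes, and a prefix can take in relatives such as EIF4EBP1. Members and lists were chosen with earlier results of these data known.

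Nuclear and cytoplasmic libraries are paired by passage number. Deviations from the group mean correlated at 0.255, 0.242 and 0.537 between the fractions at passages 27, 28 and 29, and passage 29 stood apart in both. Means with other passages were -0.0643, -0.0554 and -0.364. Deviations from a mean of 3 libraries sum to 0, so these negative values are no separate support for the pairing. The labels number replicates by passage. The calls in the report come from fits without this pairing, and a fit with the passage as a block was run as an alternative. With the block 7068 genes were nuclear and 7229 cytoplasmic, in place of 6290 and 6090. Of retained-intron transcripts 69.9% were nuclear, in place of 81.3%. The other alternatives were the RLE, upper-quartile and library-size scalings, TMM from protein-coding genes, DESeq2, length-scaled counts, limma fits of log-scale TPM (pseudocounts 0.1 and 1), no filter, a mean count of 50, and each library left out in turn. Sums over protein-coding transcripts only, genes with no overlap and genes with a canonical transcript were added after the data were seen, as was the comparison of retained-intron calls with the shares themselves.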

Additional observations from a re-analysis of the deposited data

Results flagged for a closer look

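The nuclear to cytoplasmic ratio of 13 named genes differed between wild-type cells and the mean of the 4 AGO knockout lines, by a test of that difference in edgeR over all 30 RNA-seq libraries. Values are wild type minus knockout mean on the log2 scale. Among the markers, MALAT1 differed by 1.29, NEAT1 by 0.98 and GAPDH by -0.60. The wild-type value lay outside the range of the 4 knockout lines for each of them.

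The positive differences named by the rule were SNORA22 at 4.43, 3 neighbouring olfactory receptor loci on chromosome 11, OR51K1P at 2.27, OR51I1 at 2.22 and OR51A10P at 1.97, and a copy annotated as 7SK at 1.75, which lies on the bases of RN7SK and shares its reads. The ratio of OR51K1P was 4.87 in the wild type, 3.004 without AGO1, 2.63 without AGO2, 2.21 without AGO1/2 and 2.55 without AGO1/2/3. SNORA22 had no read in any wild-type cytoplasmic library, so its fitted wild-type ratio of 10.01 is no measurement. The bound on that ratio was 6.63, the knockout lines lay at 4.72 to 6.36 on 3 to 8 cytoplasmic reads each, and neither the size nor the place of this difference is measured. Without cytoplasmic passage 28 SNORA22 was no longer called (adjusted p = 0.051), and without nuclear passage 28 the 7SK copy was not (adjusted p = 0.068).

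The negative differences named by the rule were SNORA31B at -4.54, SNORA67 at -4.54, SNORA40 at -4.0, SNORA10 at -3.99 and the read-through gene FMC1-LUC7L2 at -1.02. The 4 small nucleolar RNAs had no cytoplasmic read in any knockout line and 5.83, 8.8, 3.77 and 6.08 estimated cytoplasmic reads in the wild type, in the order given, so their fitted knockout ratios have no upper limit and the sizes of these differences are not measured either. Without cytoplasmic passage 27 of the wild type, the differences of SNORA31B and SNORA40 were -0.0674 and -0.074 and were no longer called (adjusted p of 1 for both), so these 2 values rest on that library. Genotype, clone, passage and depth cannot be told apart for any of these genes.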

How the results depend on the processing

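The split of calls turned on scaling. Genes called cytoplasmic, 6090 in the report, numbered 3316 with library size alone, 2870 with limma on log2(TPM + 0.1) and 2888 with log2(TPM + 1). Genes at least 2-fold cytoplasmic, 2725, numbered 1619 with TMM from protein-coding genes, 869, 856 and 617 with library size and the 2 limma fits, 1588 with a mean count of 50 and 1517 with upper-quartile factors. A mean count of 50 left 2548 genes 2-fold nuclear. Protein-coding genes were 41.1%, 42.4% and 42.1% nuclear and 23.4%, 19.8% and 19.9% cytoplasmic with library size and the 2 limma fits. Without a filter 35.0% of long noncoding genes and 23.9% of pseudogenes were nuclear, since many more genes were tested. Transcripts called numbered 10646 nuclear and 10067 cytoplasmic with a mean count of 50, and 7892 cytoplasmic with library size. A pseudocount of 1 raised the genes with a lower nuclear retained-intron share from 95 to 349. The cause of these moves was not tested except where the filter changes the genes tested. The replicate block (passage) moved the genes with a lower wild-type ratio than knockout lines from 2861 to 4570, and changed the call of no other named result.

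Signs reversed with protein-coding transcripts only for CLK1 (-0.0329), SRSF5 (-0.0785), SRSF11 (-0.00834), ATP5MC2 (-1.61), RPS7 (-0.30) and AGO2 (0.18), and for MT-ND6 (0.16). With length-scaled TPM they did for RPS7 (-0.081), EPB41L4A-AS1 (-1.02) and H4C15 (-0.55). EPB41L4A-AS1 was -0.33 and -0.32 with limma, and AGO1 0.0318 with library size. AGO2 and MT-ND6, neither called in the report, took values of 0.16 and 0.22 (TMM from protein-coding genes), 0.40 and 0.46 (library size), 0.56 and 0.47, then 0.55 and 0.47 (limma), 0.12 and 0.18 (mean count of 50) and 0.19 and 0.24 (upper quartile). Of these, AGO2 was called nuclear with library size and both limma fits. MT-ND6 was 0.0493 with DESeq2 and with RLE factors, 0.0158 without a filter, and -0.48 to 0.31 with each library left out in turn, above 0 without nuclear passage 28 (0.0762) or 29 (0.22) or cytoplasmic passage 28.

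With each library left out in turn, nuclear calls ranged from 6076 to 6695, cytoplasmic calls from 5497 to 6395, and no count over all genes moved by over 1.5 times. Of the list counts in the report, those that did were nuclear histones (2, and 1 without any 1 of 5 libraries, the exception being cytoplasmic passage 27), cytoplasmic genes among cytoplasmic long noncoding RNAs (3, and 5 without nuclear passage 29), SR proteins (3, and 5 without cytoplasmic passage 29) and immediate early genes (5, and 8 without nuclear passage 29), nuclear secreted and membrane proteins (5, and 8 without cytoplasmic passage 29) and cytoplasmic immune, stromal and endothelial markers (0, and 1 without nuclear passage 29 or cytoplasmic passage 28). Of 140 genes named by the rule 126 were called, and 19 of these lost the call and 11 changed sign under some alternative, none with a log2 ratio beyond 1.87 in size. Of the tested genes 129 had no cytoplasmic read and 4 no nuclear read, although the cytoplasmic libraries were the deeper ones. For these genes only a bound on the ratio can be given.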
